A study of Mus musculus with 8 samples.

Results

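Wide domains of dimethylated histone H3 lysine 36 (H3K36me2) that shared no base with a listed H3K36me3 peak were examined in C3H10T1/2 cells, a line of mouse mesenchymal progenitors derived from a C3H embryo. Of the 1691 H3K36me2 peaks deposited by the authors, 339 met 3 conditions: a length of at least 25 kb, no base shared with any of the 4999 listed H3K36me3 peaks, and a position outside chromosome 15. The WT cells stably expressed wild-type histone H3.3 with a FLAG-HA tag, and the K36M cells stably expressed the same tagged H3.3 with methionine in place of lysine 36. Both lines were taken at passages 10 to 15. The sources used here do not give the promoter of the transgene, its level beside the cells' own H3, or whether each line was a clone or a pool. Chromatin was digested to mononucleosomes, mixed with chromatin of Drosophila S2 cells amounting to 5% of it, and precipitated with an antibody to H3K36me2, H3K36me3 or H3K27me3.

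Each genotype had 1 library per mark, so no difference between genotypes could be tested, and all differences below lack a replicate check. Values are reads per region scaled by the authors to the Drosophila spike-in, called normalized reads here. Values per kb are called density. Domains are not replicates of a genotype, since all of them come from the same 2 H3K36me2 libraries. Summaries over domains describe these libraries. Intervals of single ratios are exact Clopper-Pearson 95% intervals. They cover counting error only, and PCR copies of a fragment are not independent counts.

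H3K36me2 is written mainly by the NSD family of methyltransferases, both over genes and across long stretches between them. H3K36me3 is written by SETD2, which travels with elongating RNA polymerase II, so a region without it is often one with little transcription. H3K36me2 between genes is known to recruit the DNA methyltransferase DNMT3A and to hinder Polycomb repressive complex 2, the enzyme that writes H3K27me3. The K36M substitution, known from chondroblastoma, makes H3.3 an inhibitor of H3K36 methyltransferases. Gene names are not given for the domains, because the gene table used here belongs to a build other than mm9, the mouse build of the submitters' notes. Positions are printed as deposited.

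The wide domains were selected by length, a rule that favours shares of length and signal above their share of peaks. They made up 20.0% of the listed H3K36me2 peaks but 40.9% of the listed length (17.9 of 43.8 Mb), and they held 39.4% of the WT signal over all H3K36me2 peaks. Their median length was 40.8 kb, with quartiles at 31.1 and 60.7 kb and a maximum of 442 kb. The median domain held 1562 reads in the WT library and 762 in the K36M library before scaling. The least covered domain held 836 reads in WT, and the lowest count in K36M was 365.

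H3K36me2 was lower in K36M in all 339 wide domains, as it was in all 1691 listed H3K36me2 peaks. Summed over the domains, the signal came to 753335 normalized reads in WT against 176399 in K36M, so that 23.4% of the WT level remained (4.27-fold lower). The median log2 ratio of K36M over WT was −2.10, with quartiles at −2.26 and −1.95. Single domains ranged from 2.29-fold to 6.31-fold lower. The authors' spike-in factors set these sizes. If the WT and K36M totals over all listed H3K36me2 peaks were made equal instead, the median log2 ratio of the wide domains would be −0.10. On the spike-in scale every member was at least 2-fold lower, as were 97.0% of all listed H3K36me2 peaks. A value at least 4-fold lower was found in 228 members (67.3%), beside 59.0% of all listed H3K36me2 peaks. In 127 of the 339 domains the counting interval held a ratio of 0.25, so that these could not be placed on either side of the 4-fold mark. The interval lay wholly below 0.25 in 159 domains and wholly above it in 53.

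The density of the mark in the wide domains was uniform in WT and less so in K36M. The median WT density was 41.1 normalized reads per kb, with a range of 33.6 to 52.2. In K36M the median density was 9.63, and the range was 6.50 to 20.6. The ranges did not overlap: the highest K36M density of any domain was below the lowest WT density of any domain. Over all listed H3K36me2 peaks they did overlap, with a K36M maximum of 76.0 and a WT minimum of 28.8. Wide peaks without H3K36me3 on chromosome 15 had 14.1 and 36.8, again without overlap. In the 339 domains the highest WT density was 1.55 times the lowest, and in K36M this factor was 3.17. The coefficient of variation over domains was 7.88% in WT and 19.5% in K36M, where counting error alone would give 2.52% and 3.62%. Over all listed H3K36me2 peaks this coefficient was also larger in K36M, 54.3% beside 24.2% in WT. Density and membership are not independent, since regions are listed because they were called as peaks, and the sources used here do not say in which library. The log2 ratio was nearly unrelated to WT density over the 339 domains (Spearman's rho −0.03). It followed K36M density (rho 0.88), which is also the numerator of the ratio. The plot of densities shows these spreads beside those of narrow peaks.

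**Figure D1:**
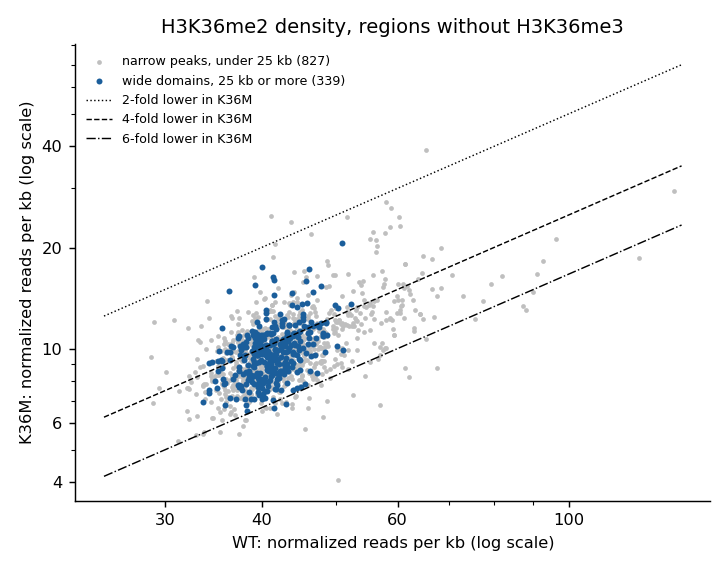
H3K36me2 density in WT (x axis) and K36M (y axis), both in normalized reads per kb on log scales, for the 339 wide domains (blue) and the 827 narrow peaks without H3K36me3 (grey); each point is 1 region and lines mark 2-fold, 4-fold and 6-fold lower values in K36M. The wide domains lie between 33.6 and 52.2 in WT and between 6.50 and 20.6 in K36M, and all of them lie below the 2-fold line.

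The longest domain was chr11:111429600-111871999. Over its 442 kb the signal was 22543 normalized reads in WT against 4377 in K36M, giving a ratio of 0.194 (0.189 to 0.199). The next longest, chr11:112241800-112539999 (298 kb), carried 14930 and 3043, with ratio 0.204 (0.198 to 0.210). Both had about the same WT density, 51.0 and 50.1 normalized reads per kb, which is close to the highest of any member. Between them the table lists a 357 kb peak, chr11:111879200-112236599, whose ratio was also 0.194 (0.189 to 0.200). It is not a member, because a 1.20 kb H3K36me3 peak, chr11:112025400-112026599, lies inside it. That H3K36me3 peak held only 66 reads in WT and 30 in K36M before scaling. With 2 more members at its ends, this block spanned 1249 kb and 94.4% of it was covered by listed H3K36me2. Its 4 members were between 4.05-fold and 5.15-fold lower.

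The other 4 of the 6 longest domains had lengths from 137 to 189 kb. The 189 kb domain chr2:24238000-24427199 carried 8486 normalized reads in WT against 1999.9 in K36M (ratio 0.236, interval 0.227 to 0.245). The 182 kb domain chr4:56225000-56406599 carried 8570 against 1540 (ratio 0.180, interval 0.172 to 0.188). In chr12:80929400-81102799, 173 kb long, the ratio was 0.236 (0.226 to 0.245). In chr16:57341200-57477799, 137 kb long, it was 0.232 (0.221 to 0.244). The chromosome 4 domain and both chromosome 11 domains thus had lower ratios than the other 3, and their counting intervals did not overlap those of the other 3.

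Within the wide class, the longest and the shortest domains had close medians. The 84 longest domains, from 61.0 to 442 kb, had a median log2 ratio of −2.11. The 85 shortest, from 25 to 31.0 kb, had −2.08. The difference was −0.03 on the log2 scale, and the 2 groups of intermediate length had −2.07 and −2.13. WT density was 42.8 normalized reads per kb in the longest and 40.7 in the shortest. Values lower by 4-fold or more occurred in 60 of the 84 longest (71.4%) and 55 of the 85 shortest domains (64.7%). Over all listed H3K36me2 peaks the share was 59.0%. The values at the edge of the class overlapped: the 4 members of exactly 25 kb were 3.15-fold to 4.47-fold lower, and the 3 peaks of 24.8 kb that missed the limit were 4.02-fold to 4.62-fold lower.

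Other groups of H3K36me2 peaks put the wide domains in context. The 827 peaks shorter than 25 kb, also outside chromosome 15 and without H3K36me3, had a median log2 ratio of −2.11. It differed by 0.01 from the wide domains. With a pseudocount of 38.5 normalized reads added to every value, the wide domains' median was below that of the narrow peaks by a difference of −0.34. The 4-fold mark was passed by 555 of the narrow peaks (67.1%), beside 67.3% of the wide domains and 59.0% of all listed H3K36me2 peaks. The narrow peaks had median densities of 42.1 normalized reads per kb in WT and 9.95 in K36M. The spread was larger in the narrow peaks, with an SD of 0.31 on the log2 scale where counting error alone would give 0.16. In the wide domains these values were 0.24 and 0.06.

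Peaks that shared bases with H3K36me3 had smaller differences between genotypes. In the 234 such peaks outside chromosome 15 the median log2 ratio was −1.502. The wide domains without H3K36me3 differed from it by −0.60. Many of the 234 are short. Among the 70 of at least 25 kb, the median was −1.79, and the difference from the wide domains was −0.31. WT densities were close, 43.8 normalized reads per kb in these 70 and 41.1 in the wide domains without H3K36me3. The densities in K36M were 13.4 and 9.63. The 4-fold mark was passed by 15 of the 70 (21.4%), beside 59.0% of all listed H3K36me2 peaks.

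The difference between wide peaks with and without H3K36me3 was largest where H3K36me3 covered most of the peak. In 24 wide peaks with over 50% of their length in H3K36me3, the median log2 ratio was −1.44 and the K36M density 16.5 normalized reads per kb. In 23 with 10% to 50% covered, these values were −1.87 and 12.4. In 23 with less than 10% covered, they were −1.95 and 11.1. The last group had a median only 0.15 above that of the wide domains without H3K36me3. The rule counts 1 shared base as an overlap, so some peaks like the one on chromosome 11 fall outside the class.

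On chromosome 15, which the definition leaves out, 96 peaks of at least 25 kb shared no base with H3K36me3. Their median log2 ratio was −2.26, lower than that of the 339 domains by 0.16. They had a median length of 52.3 kb, and their densities were 44.3 normalized reads per kb in WT and 8.86 in K36M. None of the differences between these groups of peaks could be tested with 1 library per genotype.

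**Figure D2:**
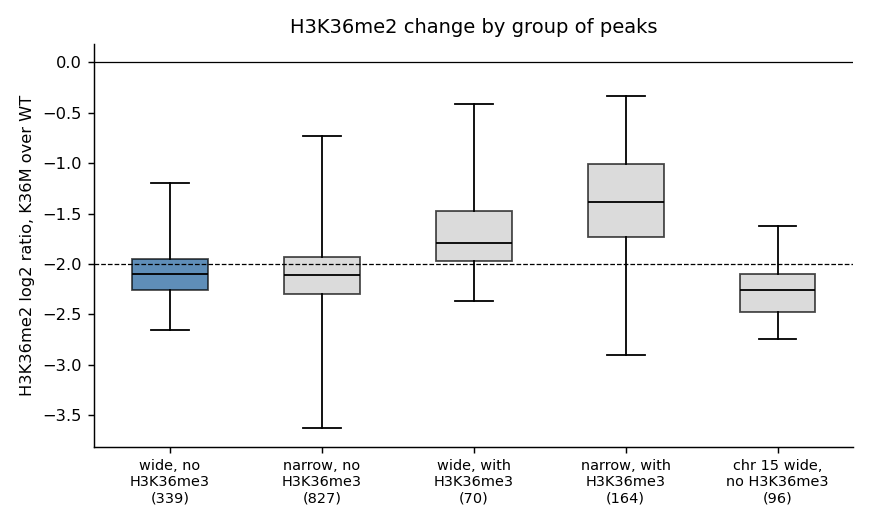
Log2 ratio of H3K36me2 in K36M over WT for 5 groups of peaks, with the number of peaks in parentheses; boxes span the quartiles, centre lines are medians, whiskers reach the lowest and highest peak, and the dashed line marks a 4-fold lower value. The wide domains without H3K36me3 (blue) have a median of −2.10, close to −2.11 in narrow peaks without H3K36me3, while wide and narrow peaks with H3K36me3 have medians of −1.79 and −1.39.

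Wide domains far from any listed H3K36me3 peak had lower ratios than those close to one. The median distance to the nearest H3K36me3 peak was 92.6 kb. The median log2 ratio was −2.03 in the 55 domains up to 10 kb away and −1.999 in the 63 at 10 to 50 kb. At 50 to 200 kb, 127 domains had −2.11. The 94 domains over 200 kb away had −2.26, a 4.77-fold difference between genotypes. The 4-fold mark was passed by 61.8%, 49.2%, 66.1% and 84.0% of these groups, in order of distance, beside 59.0% of all listed H3K36me2 peaks. The step lay beyond 50 kb, since the 2 nearest groups had about the same median.

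The densities behind these ratios differed mainly in K36M. In WT the medians were 42.6, 41.8, 40.4 and 40.6 normalized reads per kb from the nearest group to the farthest. In K36M they were 10.3, 10.6, 9.55 and 8.58. Domains over 200 kb away thus had 0.22 lower log2 ratios than those up to 10 kb away, while median lengths were similar, 43.7 and 40.6 kb. Over the 339 domains, Spearman's rho between distance and log2 ratio was −0.37. The points share 2 libraries, and neighbouring domains share a surrounding, so this is a description.

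The same order was seen within chromosomes. Of the chromosomes, 9 had at least 4 domains up to 50 kb and at least 4 over 200 kb from H3K36me3. On all 9 the far domains had the lower median, by log2 differences of −0.30 to −0.05 with a median of −0.11. On chromosome 10, 20 near domains had a median of −1.996 and 17 far domains −2.30. On chromosome 2, 14 near domains had −1.99 and 12 far domains −2.26. Relative to the median of all H3K36me2 peaks on the same chromosome, the farthest and nearest groups differed by −0.18. Without chromosome 10 the difference was also −0.18.

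Regions outside the wide class, measured in the same libraries, had the same order at the ends. Narrow peaks without H3K36me3 had a median log2 ratio of −2.06 in the 90 peaks up to 10 kb from H3K36me3 and −2.25 in the 232 over 200 kb away. The 4-fold mark was passed by 56.7% of these 90 and 81.9% of these 232, beside 59.0% of all listed H3K36me2 peaks. On chromosome 15, the 23 wide domains over 200 kb away had −2.47. The 10 up to 10 kb away had −2.21, a small group. The distances refer to listed peaks, and the H3K36me3 table may not list all regions that carry the mark.

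**Figure D3:**
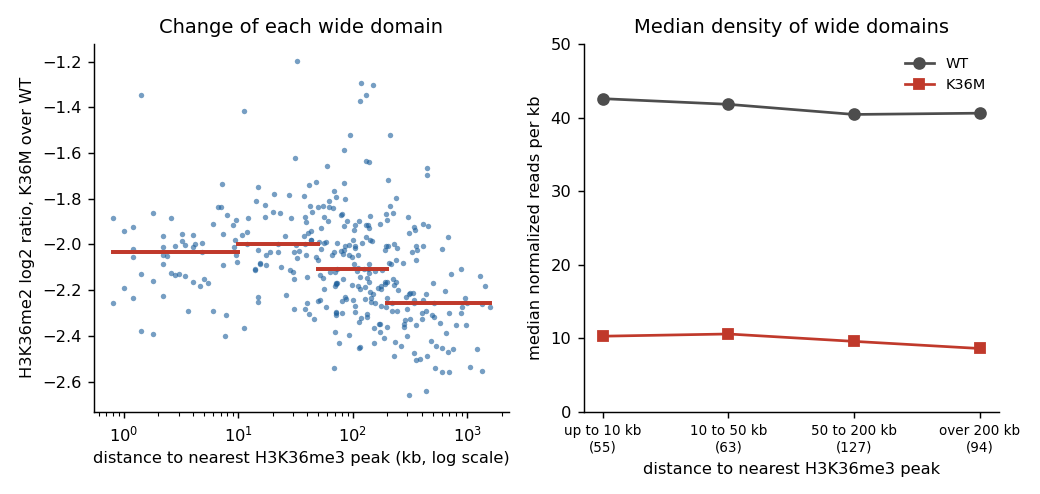
Left, log2 ratio of H3K36me2 in K36M over WT for each of the 339 wide domains (points) against the distance to the nearest listed H3K36me3 peak in kb on a log scale, with the median of 4 distance groups as red lines; right, median density of these groups in WT and K36M in normalized reads per kb, with the number of domains in parentheses. The group medians run from −2.03 up to 10 kb away to −2.26 over 200 kb away, with WT densities of 42.6 and 40.6 and K36M densities of 10.3 and 8.58.

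H3K36me3 in the nearest peaks was measured with another antibody. Of the wide domains, 118 had an H3K36me3 peak within 50 kb, and these were 111 distinct peaks. The H3K36me3 log2 ratio of those peaks had a median of −1.78, beside −1.71 for all listed H3K36me3 peaks. The H3K36me2 median of the 118 domains was −2.01. In 98 of the 118 pairs (83.1%) the H3K36me2 ratio of the domain was below the H3K36me3 ratio of its neighbour. Over all listed peaks the median was also lower for H3K36me2, −2.07, than for H3K36me3, −1.71. The count is therefore not a trait of these pairs, and the share in other pairs was not computed. The marks have separate spike-in factors, whose error was not measured. Over the pairs, Spearman's rho between the ratios of both marks was 0.41, with domains on the same chromosome sharing its level.

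The lowest ratios among the domains of higher signal lay far from H3K36me3. Among members with at least the class's median signal (mean of both genotypes), the 6 lowest ratios lay between 0.160 and 0.176, or 5.67-fold to 6.24-fold lower. All 6 were at least 359.8 kb from the nearest listed H3K36me3 peak. On chromosome 2, 3 of them stood in a row. The lowest, chr2:137376000-137461199, carried 3538 normalized reads in WT against 567 in K36M (ratio 0.160, interval 0.149 to 0.172). Its neighbours chr2:137469000-137566199 and chr2:137301400-137369399 followed at 0.172 (0.162 to 0.182) and 0.176 (0.163 to 0.190). In chr4:64532200-64579599 the ratio was 0.170 (0.155 to 0.186). It was also 0.170 (0.156 to 0.185) in chr16:25816000-25865599, and 0.176 (0.161 to 0.193) in chr10:37245200-37295999. Counting intervals of all 6 overlapped, so their order is not resolved. Their WT densities, 40.1 to 45.0 normalized reads per kb, were ordinary for the class. A domain below the signal limit, chr4:80675000-80710399, had a ratio of 0.172 (0.155 to 0.190) at only 68.6 kb from H3K36me3.

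The 6 highest ratios by the same rule lay between 0.304 and 0.375, or 2.67-fold to 3.29-fold lower. Of these, 3 were neighbours on chromosome 11. The highest, chr11:118205600-118242199, carried 1687 normalized reads in WT against 633 in K36M (ratio 0.375, interval 0.348 to 0.405). Its neighbours chr11:117991200-118029199 and chr11:118054400-118113799 followed at 0.333 (0.308 to 0.360) and 0.321 (0.302 to 0.341). The 120 kb domain chr2:131482400-131602599 carried 5497 against 1915 (ratio 0.348, interval 0.334 to 0.364). In the 121 kb domain chr10:21462800-21583799 the ratio was 0.322 (0.307 to 0.337), and in chr5:53747800-53791399 it was 0.304 (0.281 to 0.329). Their distances to H3K36me3 ran from 11.2 to 203 kb, nearer than any of the 6 lowest.

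The 4 highest WT densities included the longest domain on chromosome 11 and lay between 50.2 and 52.2 normalized reads per kb. The highest was in chr11:121638000-121672399, 34.4 kb long, with 52.2 in WT against 13.6 in K36M. In chr11:117763000-117824199, 61.2 kb long, the densities were 50.2 and 13.2. The 27.4 kb domain chr13:12889800-12917199 had 50.8 in WT against 20.6 in K36M, the highest K36M density of all members (ratio 0.405, interval 0.374 to 0.440). Chromosome 13 had higher ratios in other regions as well. Its median log2 ratio was −1.85 over 6 wide domains and −1.95 over 41 narrow peaks without H3K36me3. Its H3K36me3 peaks had a median of −1.33, beside −1.71 for all listed H3K36me3 peaks. The 4 domains were therefore between 2.47-fold and 5.15-fold lower, so a high WT density went with both high and low ratios.

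Many wide domains stood close to one another. Of the 339, 125 (36.9%) had another wide domain within 100 kb, and they formed 51 runs of 2 or more. The run with the most domains was one of 8 domains, chr10:36911600-37623399, whose 712 kb was covered by wide domains to 62.0%. K36M values in these 8 were lower by 4.58-fold to 5.90-fold. In the first, 55.8 kb from the nearest H3K36me3 peak, the ratio was 0.218 (0.202 to 0.235). The next 3 had ratios of 0.197 (0.184 to 0.210), 0.184 (0.169 to 0.201) and 0.176 (0.161 to 0.193). These lay 169, 263 and 389 kb from H3K36me3. The interval of the first did not overlap that of the third or the fourth. The last domain, 113.8 kb long and 654 kb from H3K36me3, had a ratio of 0.191 (0.180 to 0.202).

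The next runs by number held 4 domains each. In chr2:137301400-137671999 the 4 domains were 5.53-fold to 6.24-fold lower, and the run summed to 12766 normalized reads in WT and 2182 in K36M. In chr4:55943800-56517999 the range was 4.99-fold to 5.56-fold, and the sums were 22027 and 4191. A second run on this chromosome, chr4:80513600-80781199, had 5.16-fold to 5.81-fold lower values, although its domains lay only 7.6 to 113.4 kb from H3K36me3. The run chr10:85525000-85922199 had smaller differences, 3.69-fold to 4.17-fold, with sums of 13186 and 3293. No domain of that run had a ratio as low as any domain of the other 3 runs of 4. That run and the second run on chromosome 4 each had 1 listed H3K36me3 peak in a gap between domains.

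Wide domains next to each other were compared by the difference in their ratios. In 22 pairs of successive domains up to 10 kb apart, the median absolute difference in log2 ratio was 0.08. It was 0.14 in 52 pairs at 10 to 100 kb, 0.12 in 79 pairs at 100 kb to 1 Mb, and 0.17 in 169 pairs over 1 Mb apart. The median difference was thus smallest in the closest pairs, although it did not grow steadily with distance. Counting error alone would give a pair's difference an SD of 0.084 in the closest pairs and 0.092 in the farthest. An SD is a wider measure than a median absolute difference, so these values are not on the scale of the medians above. Whether the closest pairs differed by more than counting error was not tested. The largest difference in a pair up to 10 kb apart was 0.35, and among pairs over 1 Mb apart it was 1.02.

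**Figure D4:**
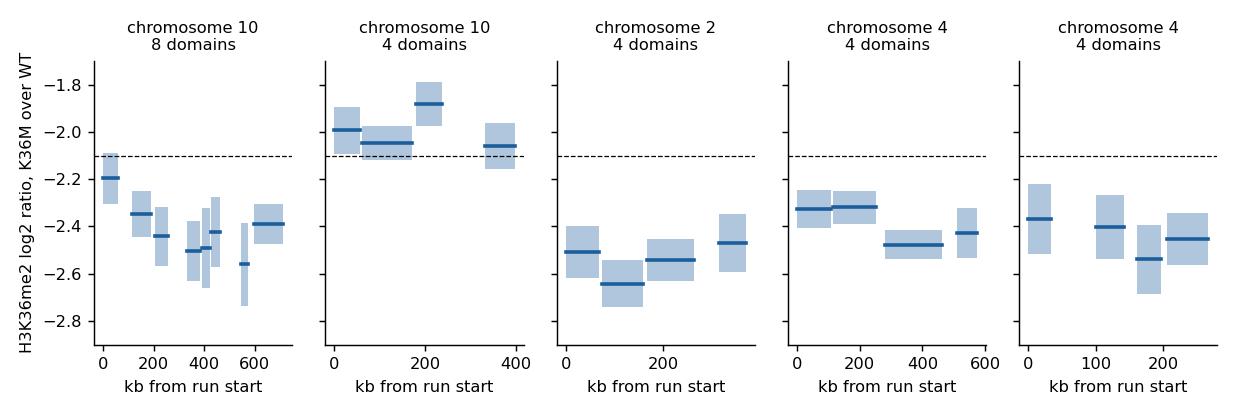
Log2 ratio of H3K36me2 in K36M over WT along the 5 runs with the most wide domains, against the distance in kb from the start of each run; bars span each domain, shading is the 95% counting interval, and the dashed line is the median of all 339 wide domains, −2.10. The run of 8 and 3 of the runs of 4 lie below the line, and the second run of chromosome 10, 3.69-fold to 4.17-fold lower, lies above it.

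The domains were unevenly spread over the chromosomes. They were found on 17 chromosomes, and chromosomes 2, 10, 11, 12 and 16 held 56.6% of them. These 5 also held 42.0% of the narrow peaks without H3K36me3, beside 31.1% of the listed H3K36me3 peaks. Chromosome 10 alone had 52 wide domains (15.3%), 103 of the 827 narrow peaks and 170 of all 1691 H3K36me2 peaks. It held 6.06% of the listed H3K36me3 peaks. Chromosomes 6 and X had no wide domain, with 19 and 2 listed H3K36me2 peaks, and chromosome 18 had 1.

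The ratios differed between chromosomes as well. Among the 11 chromosomes with at least 10 wide domains, chromosome 4 had the lowest median log2 ratio, −2.33 over 27 domains, and 24 of them were at least 4-fold lower. The highest median was −1.95 on chromosome 8, where 7 of 18 domains were at least 4-fold lower, beside 59.0% of all listed H3K36me2 peaks. Chromosome 17 had −1.97 over 26 domains, and 11 were at least 4-fold lower. Chromosome 16 had −2.17, with 30 of 34 domains at least 4-fold lower. Chromosome medians of wide domains and of narrow peaks without H3K36me3 had a similar order over these 11 chromosomes (Spearman's rho 0.83).

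**Figure D5:**
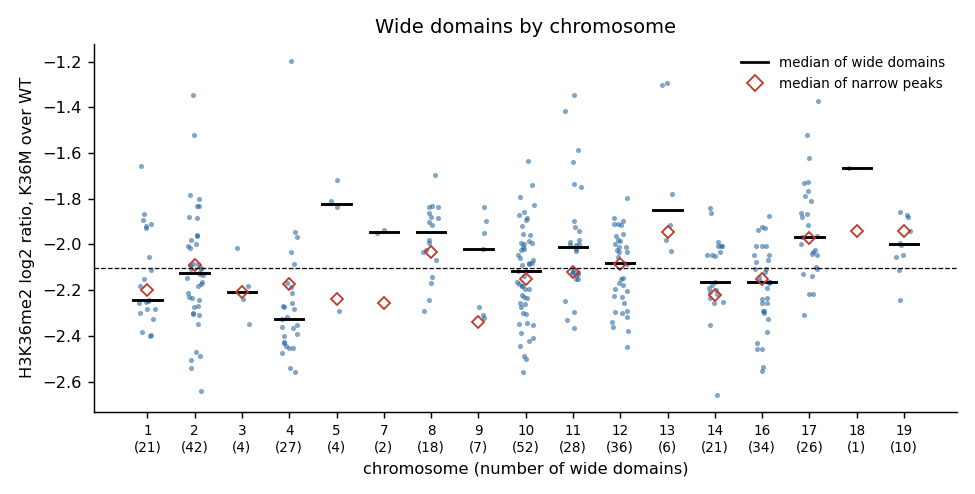
Log2 ratio of H3K36me2 in K36M over WT for each wide domain (blue points) by chromosome, with the number of domains in parentheses; black bars are medians of wide domains, red diamonds are medians of narrow peaks without H3K36me3, and the dashed line is −2.10, the median of all wide domains. Chromosome 4 has the lowest median among chromosomes with at least 10 domains, −2.33, and chromosome 8 the highest, −1.95.

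Few listed H3K36me2 peaks without H3K36me3 met a listed H3K27me3 peak. Bases were shared by 1 of the 339 wide domains (0.295%), 8 of the 827 narrow peaks without H3K36me3 (0.967%) and 40 of all 1691 H3K36me2 peaks (2.37%). The share was higher in the 234 peaks with H3K36me3 outside chromosome 15 (20 peaks, 8.55%). Of all 291 peaks on chromosome 15, 11 met H3K27me3 (3.78%). These shares refer to the 999 listed H3K27me3 peaks, which may not include all regions that carry the mark. The wide domain that met H3K27me3 was chr17:8171600-8200399. It carried 1196 normalized reads of H3K36me2 in WT against 461 in K36M (ratio 0.386, interval 0.353 to 0.422), a 2.59-fold difference and among the smallest differences of the class. The H3K27me3 peak, chr17:8186800-8312799, carried 1256 normalized reads in WT against 1773 in K36M (ratio 1.41, interval 1.37 to 1.46). The peaks shared 13.6 kb of their 28.8 and 126 kb.

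Nearby H3K27me3 peaks had no common direction. The median distance from a wide domain to the nearest listed H3K27me3 peak was 709 kb. Within 100 kb, 33 wide domains had 31 distinct H3K27me3 peaks. Of these 31, 10 had a higher H3K27me3 value in K36M and 21 a lower one, and their median log2 ratio was −0.12. Over all 999 H3K27me3 peaks the median was −0.08 and 375 were higher. The ratios of the 31 peaks ran from 0.449 to 1.58. H3K27me3 inside the wide domains themselves was not measured, since the table gives values only for its own peaks.

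H3K36me2 ratios were slightly lower in domains farther from H3K27me3. The median log2 ratio was −2.02 in the 33 domains within 100 kb of an H3K27me3 peak and −2.13 in the 128 domains over 1 Mb away. Between these, 102 domains at 100 to 500 kb had −2.08 and 76 at 500 kb to 1 Mb had −2.09. Spearman's rho between this distance and log2 ratio was −0.17, beside −0.37 for the distance to H3K36me3. The nearer domains also lay nearer to H3K36me3, with a median distance of 49.4 kb beside 141.5 kb for the domains over 1 Mb from H3K27me3. Whether this accounts for the difference was not tested.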

How the data were processed

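ChIP with a Drosophila spike-in was measured in 8 samples, 6 ChIP and 2 input libraries, and the inputs were not analysed here. The values are a signal deposited by the authors, reads per peak multiplied by 1 spike-in factor per library, per the file headers. The submitters' processing notes name Bowtie 1.0.0 as a tool, with mm9 and dm6 as builds. The sources used here do not name the peak caller, its settings or a duplicate filter. Starts are multiples of 200, as in windows counted from 0.

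All values were whole multiples of 1 step per column, 1.08 in WT and 0.52 in K36M for H3K36me2, and reads were values divided by this step. Ratios are K36M over WT without a pseudocount. With 1 library per genotype no test was made. Overlap means at least 1 shared bp. Named regions are the 6 longest, the 4 of highest WT density, the 6 lowest and 6 highest ratios among domains with at least the class's median signal, 3 peaks on each side of the length limit with ties, the domain that meets H3K27me3, and the 3 runs with the most domains, which ties extended to 5. Regions shown inside the longest block were chosen after their values were seen. The members, groups and distance limits were chosen with earlier results of these data known. Alternatives covered pseudocount, scaling, length, chromosome 15, density, merging and distance. The calculations were tested on simulated data with 200 changed regions. Python 3.11.15, numpy 2.4.6, pandas 2.3.3, scipy 1.17.1 and matplotlib 3.10.9 were used.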

Additional observations from a re-analysis of the deposited data

How the results depend on the processing

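No paired analysis was possible because each genotype had 1 library per mark, and no replicate could be left out. Of 70 alternative values, 8 could not change by construction. Of the other 62, 35 stayed within 1.5 times a count or within the interval of the reported value. That interval comes from the reads for a total and from the ranks of the domains for a median, so it does not hold the error between cultures. None changed the direction of the difference between the genotypes in the wide domains. The difference from narrow peaks took both signs, and that between the longest and shortest domains ran from −0.174 to 0.0034. With both libraries scaled to the same total, which removes the global difference by construction, the median log2 ratio of the wide domains was −0.096, the total ratio 0.940 and the number at least 4-fold lower 0. A pseudocount of 38.5 gave a median of −1.996 and a total ratio of 0.247. It moved the difference from narrow peaks to −0.338 and that from peaks with H3K36me3 to −0.722, since it weighs more in peaks with few reads. Counting only domains of at least 50 kb left 132, with a total ratio of 0.231, 91 at least 4-fold lower, a WT density 0.996 times that of the shorter peaks, 40 with a neighbour within 100 kb and 0 that met H3K27me3. From 20 kb, 2 met H3K27me3. With chromosome 15 the median was −2.135, the total ratio 0.227 and 3 domains met H3K27me3. Without domains that had H3K36me3 within 50 kb the median was −2.167 and the total ratio 0.226. In the 96 domains with a density at or above the median of all H3K36me2 peaks, these were −2.0 and 0.247, with 48 at least 4-fold lower and a difference of 0.0998 from narrow peaks. This filter uses the K36M value and so favours high ratios. A neighbour within 500 kb was found for 197 domains, and 14 had H3K27me3 within 50 kb. Added after the data were seen, factors rounded to 2 decimals would allow total ratios of 0.231 to 0.238, and the difference from peaks with H3K36me3 of at least 25 kb was −0.310. In the wide domains, the difference between those far from and near H3K36me3 was −0.180 relative to the chromosome's median, −0.184 without chromosome 10 and −0.176 with the pseudocount. Depth limits single ratios to intervals whose upper bound was 1.19 times the lower at the median, and error between cultures was not measured.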

Other observations

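Narrow H3K36me2 peaks beside the wide domains had ratios like those of the domains. Of the 827 narrow peaks without H3K36me3, 136 lay within 100 kb of a wide domain, and their median length was 11.5 kb. The log2 ratio of such a peak minus that of its nearest wide domain had a median of −0.05, with quartiles at −0.17 and 0.09. Its WT density was 1.05 times that of the domain at the median. Over the 136 pairs, Spearman's rho between the log2 ratios was 0.55, a description of regions that share libraries and chromosomes. The other 691 narrow peaks had a median log2 ratio of −2.10, beside −2.13 for the 136.

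The 3 lowest ratios without a limit on the mean included the 36.6 kb domain chr14:100729800-100766399, with a log2 ratio of −2.66. The 3 highest were chr4:88620200-88646999, with −1.20, and chr13:63189000-63224399 and chr13:12889800-12917199, with −1.29 and −1.30. The 6 wide domains of chromosome 13 had a median of −1.85, above the −2.10 of the class.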
